A study of Homo sapiens with 12 samples.

Results

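The metallothionein cluster of chromosome 16 was described here by the histone marks that HepG2 cells carry along it. Its members were the peaks of 3 deposited lists that overlap chr16:56590000-56730000 (GRCh37), a window of 140 kb that holds the metallothionein genes MT4, MT3, MT2A, MT1E, MT1M, MT1A, MT1F, MT1G, MT1H and MT1X. The window held 44 of the 273551 peaks on chromosomes 1 to 22 and X. Of these, 4 were H3K27ac, 32 H3K4me1 and 8 H3K4me3 peaks, out of 66513, 182592 and 24446 in the respective lists. HepG2, an established human cell line, derives from a liver tumour. It was grown without treatment and profiled by chromatin immunoprecipitation and sequencing, in which DNA wrapped on histones with a given modification is pulled down by an antibody. The 12 libraries formed 4 groups of 3, one for each of the 3 marks and one titled input, whose antibody label named an anti-mouse IgG. The lists pooled the 3 libraries of a mark, so the spread between libraries and their depth are unknown and no difference could be tested against replicate error. All groups came from 1 line, and the input libraries gave no values of their own.

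Metallothioneins are small proteins rich in cysteine that bind zinc, copper and cadmium. Their genes are switched on by metals through the factor MTF1, which binds metal response elements in their promoters, and by glucocorticoids and oxidative stress, and the liver is a main site of their induction. MT2A and the MT1 genes are broadly expressed, whereas MT3 is known from brain and MT4 from stratified squamous epithelium. H3K4me3 marks mainly promoters, H3K27ac active promoters and enhancers, and H3K4me1 enhancers and the flanks of promoters.

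The gene order along the chromosome, from the RefSeq gene table, was MT4, MT3, MT2A, MT1E, MT1M, MT1A, MT1F, MT1G, MT1H, MT1X, and all 10 members were found in that table. It also placed MT1B and 5 pseudogenes between MT2A and MT1X. That table is of another build, so its positions were not used. GRCh37 positions were at hand for 2 members: MT2A, from 56642478 to 56643409, and the start of MT1X at 56716382, both on the plus strand. Peaks between MT2A and MT1X are therefore given by position and were not assigned to a gene. Liver marker genes and other genes of zinc handling, such as MTF1 and the zinc transporters, were not analysed here for the same reason.

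Promoter sequences of 4 members were matched in the RefSeq promoter table (GRCh38.p14), and the 250 bases before the start are shown for the MT2A and MT1X promoters, which carried H3K4me3, for MT4, whose part of the cluster carried none, and for MT1H, which lies among peaks not assigned to a gene. Capitals mark the core of the metal response element, TGCNCNC, on either strand. The positions of that build, all on the plus strand, are chr16:56608334-56608583 for MT2A, chr16:56682220-56682469 for MT1X, chr16:56564823-56565072 for MT4 and chr16:56669564-56669813 for MT1H. No conversion between the builds was made, so they were not set beside the GRCh37 positions of the peaks. Whether the MT1H start lies in a peak was not determined.
MT2A: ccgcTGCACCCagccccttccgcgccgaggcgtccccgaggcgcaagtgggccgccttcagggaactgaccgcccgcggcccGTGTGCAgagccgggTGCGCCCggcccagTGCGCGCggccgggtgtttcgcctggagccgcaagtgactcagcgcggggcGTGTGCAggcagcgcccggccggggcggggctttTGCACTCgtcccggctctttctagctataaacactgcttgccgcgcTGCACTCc
MT1X: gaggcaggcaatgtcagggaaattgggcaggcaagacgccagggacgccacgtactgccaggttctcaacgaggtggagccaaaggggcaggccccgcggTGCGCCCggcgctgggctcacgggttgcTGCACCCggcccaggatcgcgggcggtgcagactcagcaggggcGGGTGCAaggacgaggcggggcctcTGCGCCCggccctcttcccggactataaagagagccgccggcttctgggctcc
MT4: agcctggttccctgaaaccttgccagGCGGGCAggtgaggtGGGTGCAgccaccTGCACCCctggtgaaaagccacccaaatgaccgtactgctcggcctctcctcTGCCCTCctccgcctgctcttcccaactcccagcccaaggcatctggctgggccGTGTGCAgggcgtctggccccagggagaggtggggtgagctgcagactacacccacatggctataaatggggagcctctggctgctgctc
MT1H: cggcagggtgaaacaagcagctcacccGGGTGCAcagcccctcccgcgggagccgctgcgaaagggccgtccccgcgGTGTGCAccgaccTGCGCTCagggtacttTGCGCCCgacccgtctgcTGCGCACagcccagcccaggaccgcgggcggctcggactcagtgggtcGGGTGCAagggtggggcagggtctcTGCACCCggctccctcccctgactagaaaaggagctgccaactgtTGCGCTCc

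The core was found 7 times before MT2A, 4 times before MT1X, 5 times before MT4 and 8 times before MT1H. Over all 35116 promoters of the table, 49.1% held at least 1 match in the same 250 bases, 1.77% held at least 4, 0.510% at least 5, 0.0854% at least 7 and 0.0513% at least 8. No matches of the core overlapped each other in these promoters. The stricter forms TGCACNC and TGCGCNC, held by 9.87% and 16.8% of all promoters, were matched 5 and 2 times in MT2A, 2 and 2 times in MT1X, 4 and 4 times in MT1H, and 3 and 0 times in MT4. A TATA box, TATAAA, began at position -29 of MT2A and of MT4 and at -30 of MT1X, where -1 is the base before the start, and these letters were not in the window of MT1H. Of all promoters 10.7% held TATAAA. The GC box GGGCGG, held by 42.6% of all promoters, was matched 2 times each in MT2A and MT1X and 1 time in MT1H, and 1 of those in MT1X overlapped the metal response core. TGANNNNGC, a loose pattern for the antioxidant response element with any letter at N, was matched 1 time in MT2A and 2 times in MT1X. A match to it was held by 35.2% of all promoters. These motifs were searched on both strands, and a match is a description of the letters, not of bound protein. MT2A and MT1X, with H3K4me3 at their starts, and MT4, from a stretch without H3K4me3 peaks, all held the core. So did 49.1% of all promoters, and whether the core bears on the marks was not tested. MT4 had more matches of TGCNCNC than MT1X, 5 against 4, and more of TGCACNC, 3 against 2. MT1X had more of TGCGCNC, 2 against 0. The MT4 matches at -224 and -144 were of neither stricter form, whereas every match in MT2A, MT1X and MT1H was of 1 of them. With matches of neither form left out, the order was reversed, 4 in MT1X against 3 in MT4. GC content was 73.2% for MT2A, 70.0% for MT1X, 70.4% for MT1H and 64.4% for MT4, against a median of 58.0% (interquartile range 46.4 to 68.0) over all promoters.

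H3K4me3 and H3K27ac were both strongest at MT2A, a broadly expressed member, and the other marked places of the cluster carried less of each. The signal value of a peak was assigned by the authors in peak calling. Its reference level is not given, so it was only ranked within its list. The H3K4me3 peak over the MT2A start ran from 56640346 to 56644339 with a signal value of 27.4, and 38.9% of the H3K4me3 list was stronger. The H3K27ac peak there ran from 56639709 to 56644325 with a signal value of 31.1, and 5.61% of the H3K27ac list was stronger. By signal value, MT2A thus stood high in the acetylation list and in the middle of the H3K4me3 list. By width it stood high in both. Its H3K4me3 peak of 3994 bp was at least as wide as 93.3% of its list. The H3K27ac peak of 4617 bp was at least as wide as 95.6% of its own. The H3K4me3 peak over the MT1X start ran from 56715646 to 56717277 with a signal value of 16.1, with 47.4% of its list stronger. The H3K27ac peak over that start ran from 56715765 to 56717018 and had a signal value of 5.10, with 35.4% of its list stronger.

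**Figure D1:**
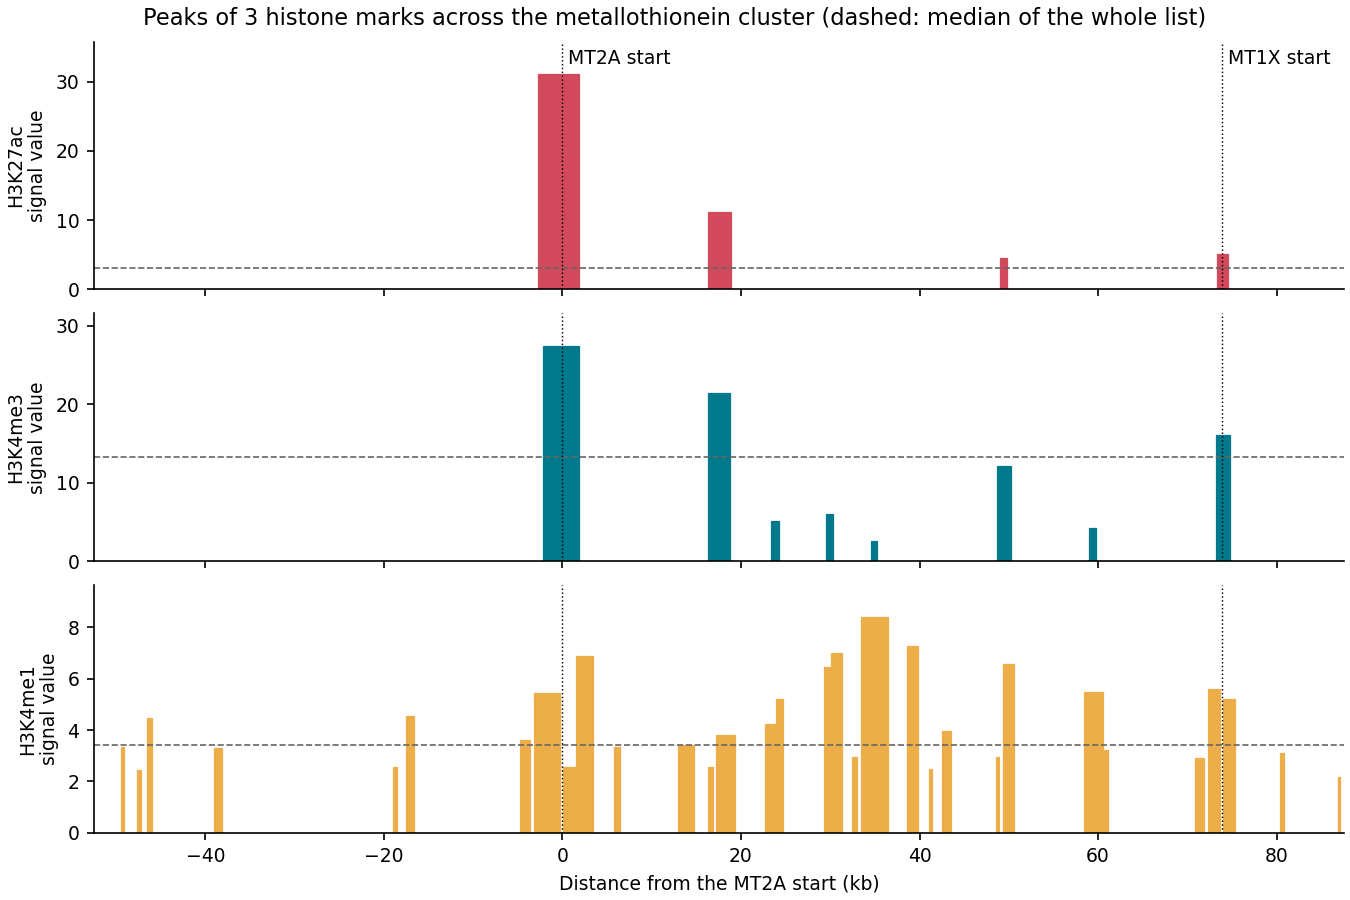
Peaks of H3K27ac, H3K4me3 and H3K4me1 along the window. The x axis is the distance from the MT2A start in kb, bar width is the extent of a peak, bar height its signal value on the scale of its own list, and the dashed line the median of the whole list; 4 H3K27ac peaks coincide with 4 of the 8 H3K4me3 peaks, while the 32 H3K4me1 peaks spread over the whole window.

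Between MT2A and MT1X lie 6 members, MT1E, MT1M, MT1A, MT1F, MT1G and MT1H, and 6 H3K4me3 peaks were found there. In the order of the chromosome, the first ran from 56658757 to 56661265 with a signal value of 21.5. The second, from 56665866 to 56666721, had a signal value of 5.16, and the third, from 56672047 to 56672777, 5.97. The next, from 56677087 to 56677681, was the weakest of the cluster at 2.59. Relative to each other, the 6 peaks therefore fell into stronger and weaker ones with no steady course along the chromosome. Only the first of the 6 was above the median of the whole H3K4me3 list, 13.3. The last of them ran from 56691163 to 56692697, with a signal value of 12.1, and from 56701423 to 56702295, with 4.24. The cluster held 7 metallothionein genes and 5 pseudogenes in this stretch, so equal numbers of peaks and members do not pair them.

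No H3K4me3 peak and no H3K27ac summit lay in the 50.3 kb of the window before the H3K4me3 peak of MT2A, where the gene order places MT4 and MT3. The H3K27ac peak before that of MT2A ended at 56554409, outside the window, 85.3 kb away. Gaps that long or longer are uncommon in the list: 8.07% of the gaps between neighbouring H3K27ac peaks were longer, and the median gap was 4.08 kb. For H3K4me3 the gap there was 85.5 kb, and 26.4% of gaps in its list were longer. H3K4me1 was present in this stretch as 7 peaks with signal values from 2.44 to 4.56 and a median of 3.33, close to the median of the whole list, 3.42. These peaks covered 11.2% of the stretch together with the edge of the H3K4me1 peak at MT2A, against 35.6% of the 76.9 kb from the first to the last H3K4me3 peak. After MT1X, the 12.7 kb to the end of the window held 2 H3K4me1 peaks, of 3.11 and 2.18, and no other mark. At the edges of the window, the outermost H3K4me1 peaks inside it ran from 56593040 and to 56729621, and the nearest outside ended at 56587684 and began at 56736162.

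Acetylation was found at the 4 strongest H3K4me3 peaks and at no other place in the window. The H3K27ac peak from 56658832 to 56661390 had a signal value of 11.2, and the one from 56691464 to 56692253 had 4.51, the lowest of the 4. The order of the 4 places was the same in both lists: MT2A, then the peak 16.8 kb after the MT2A start, then MT1X, and last the peak 49.4 kb after the MT2A start. H3K4me3 signal values were 12.1 to 27.4 at the 4 peaks with H3K27ac and 2.59 to 5.97 at the 4 without, and these ranges do not overlap. Their widths were 1535 to 3994 bp and 595 to 873 bp. In the whole list the medians were 27.5 for the 18955 H3K4me3 peaks with H3K27ac and 3.51 for the 5491 without, so the cluster follows the list in this respect, with each of its acetylated peaks below that median.

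All 4 H3K27ac peaks overlapped H3K4me3 (95% Wilson interval 51.0 to 100%), against 31.7% of the whole list. All 4 also overlapped H3K4me1, against 87.4%. None had H3K4me1 without H3K4me3, the combination named enhancer-like here, which 59.8% of the H3K27ac list showed. With 4 peaks the interval for such a share reaches 49.0%. Of the H3K4me3 peaks, 4 of 8 overlapped H3K27ac (21.5 to 78.5%), against 77.5% of the list, and the same 4 summits lay inside an H3K27ac peak, against 76.4%. The remaining 4 had H3K4me1 without H3K27ac, which 18.7% of the H3K4me3 list showed. Wilson intervals cover counting error only. When the stronger 50% of each list was used, 3 H3K4me3 peaks were left in the window and 1 H3K27ac peak became enhancer-like, because the H3K4me3 peak beneath it lay under that limit.

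H3K4me3 peaks of like strength gave a closer comparison, taken as those elsewhere in the list with 0.8 to 1.25 times the signal value. Of the peaks like that of MT2A, 97.8% overlapped H3K27ac, and the share was 93.9% for the next peak, 85.3% for MT1X and 73.2% for the peak from 56691163. For the 4 weak peaks, in the order of the chromosome, it was 55.4%, 55.6%, 51.7% and 53.7%, so a lack of H3K27ac was common among peaks of their strength. The H3K27ac signal value at MT2A, 31.1, was above the middle 50% of acetylated peaks of like H3K4me3 strength (8.45 to 24.7, median 14.6), of which 85.9% were at or below it. At the peak from 56658757 the value of 11.2 stood beside a median of 11.3. At MT1X the value of 5.10 stood in the lower part of the middle 50% (4.31 to 18.1, median 8.64), with 30.0% at or below it. The value of 4.51 at the peak from 56691163 had 32.0% at or below it (median 7.18).

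**Figure D2:**
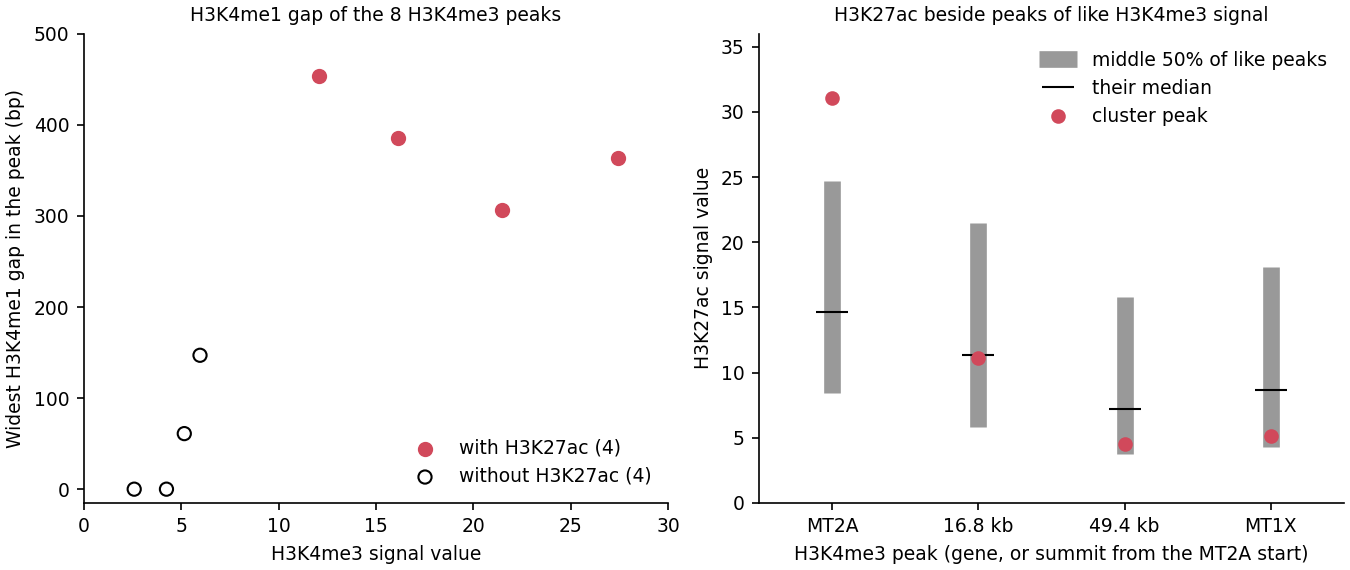
Left, the widest gap in H3K4me1 within a peak (bp) against the H3K4me3 signal value of the 8 H3K4me3 peaks, filled where H3K27ac was present; right, H3K27ac signal value of the 4 acetylated places (points) beside the middle 50% (bars) and the median (lines) of peaks of like H3K4me3 signal value elsewhere. Widest gaps are 306 to 454 bp with H3K27ac and 0 to 147 bp without, and MT2A lies above its bar.

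H3K4me1 overlapped each H3K4me3 peak and was interrupted at the 2 gene starts. At MT2A an H3K4me1 peak with a signal value of 5.46 ended 245 bp before the start, and the next, with 2.58, began 120 bp after it, leaving a gap of 364 bp. Another, with 6.90, followed from 56643966. At MT1X the peak before the start had a signal value of 5.59 and ended 261 bp from it, and the peak after it, with 5.22, began 125 bp beyond, leaving a gap of 385 bp. Both starts thus lay in a gap with H3K4me1 on either side, the near edge of which was downstream. Both lay inside H3K4me3 and H3K27ac peaks, which cover 1.49% and 3.04% of the bases of chromosomes 1 to 22 and X, and outside H3K4me1, which covers 6.47%. Joining H3K4me1 peaks within 1000 bp closed both gaps, so the interruption rests on the peak caller's division of the mark.

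**Figure D3:**
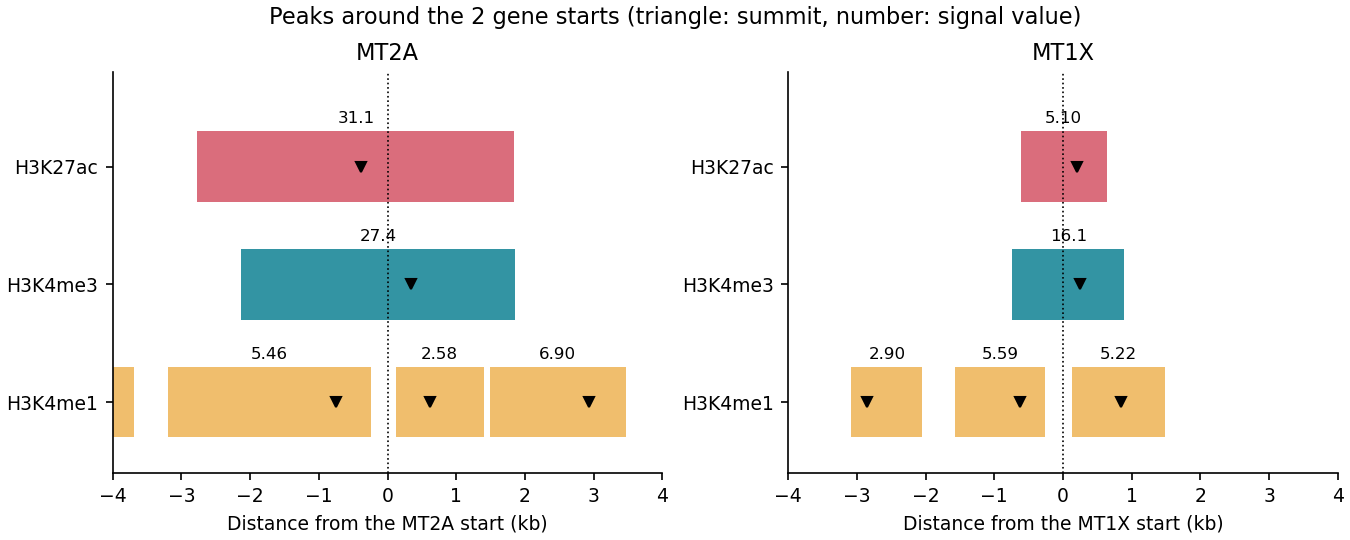
Peaks of the 3 marks within 4 kb of the MT2A start (left) and the MT1X start (right), with distance from the start in kb on the x axis; triangles are summits and numbers signal values. The dotted line, the gene start, falls between 2 H3K4me1 peaks in both panels and inside the H3K4me3 and H3K27ac peaks.

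The summits lay beside the starts. At MT2A, the H3K4me3 summit lay 335 bp after the start, inside the gene, and the H3K27ac summit 383 bp before it, so that they were 718 bp apart. At MT1X both lay after the start, at 248 bp for H3K4me3 and 204 bp for H3K27ac, 44 bp apart. At the peaks from 56658757 and 56691163 the 2 summits were 52 and 224 bp apart.

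The gaps differed between the acetylated and other H3K4me3 peaks. The MT2A peak held another, narrower gap of 87 bp, after the end of the gene. Besides the gaps at the starts of MT2A and MT1X, gaps of 306 bp and 454 bp lay in the peaks from 56658757 and 56691163. Without H3K27ac, the peaks from 56665866 and 56672047 had gaps of 61 and 147 bp. The other 2 peaks lay wholly inside 1 H3K4me1 peak each. The widest gap of a peak was thus 306 to 454 bp at 4 of 4 acetylated peaks and at most 147 bp at the others. The others were also the weakest and narrowest H3K4me3 peaks, so acetylation, strength and width cannot be told apart here. Among peaks of like H3K4me3 strength, 54.2 to 68.7% had a gap for the acetylated peaks and 10.1 to 33.0% for the others. Over the whole list 52.6% of H3K4me3 peaks with H3K27ac, 23.8% of those without and 46.1% of all had such a gap, with medians of 1278, 358 and 1141 bp. The widest gaps of the cluster were each below the median of peaks of like H3K4me3 strength, by differing amounts. Among peaks with the H3K4me3 strength of MT2A that had a gap, the median was 1061 bp and 6.70% were at or below 364 bp. For the peak from 56658757 the median was 784.5 bp, with 11.6% at or below its gap. The gap of MT1X stood nearer to its like peaks, with a median of 593 bp and 28.2% at or below it. The gap of 454 bp in the peak from 56691163 was close to its like peaks, with a median of 478 bp and 46.6% at or below it. For the weak peaks from 56665866 and 56672047 the medians were 277 and 287 bp, with 3.29% and 20.8% at or below their gaps.

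Each of the 8 H3K4me3 summits lay inside an H3K4me1 peak (67.6 to 100%), against 40.6% of the whole list, and all 8 peaks overlapped H3K4me1, against 92.7%. This share depends on strength: it was 14.0% among peaks like that of MT2A, 24.0% for the next, 36.5% for MT1X and 45.2% for the peak from 56691163, and 63.7 to 79.2% for the weak ones. At MT2A the H3K4me1 peak that held the summit was the weak one of 2.58, and 83.3% of the H3K4me1 list was stronger. At the peak from 56658757 it was also weak, at 2.55, and at the other 6 it was between 4.23 and 8.39. The H3K4me1 peak that held the summit was therefore weakest at the 2 strongest H3K4me3 peaks and strongest at the weakest. Its signal value is that of the whole H3K4me1 peak, so the H3K4me1 level at the H3K4me3 summit itself was not measured.

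The strongest H3K4me1 of the cluster lay between MT2A and MT1X. The peak from 56675972 to 56678964 had a signal value of 8.39, with 3.05% of the list stronger, was the widest of the 32 at 2993 bp, and held the weakest H3K4me3 peak. The peak from 56681089 to 56682286 followed with 7.26 and overlapped neither other mark. The peak from 56672598 to 56673758 had 7.01 and reached into the H3K4me3 peak from 56672047. None of these 3 overlapped H3K27ac, but most of the H3K4me1 list did not either, since 33.4% of it did. The next in strength, 6.90 from 56643966 at MT2A and 6.57 from 56691881, did overlap H3K27ac. Of the 32 H3K4me1 peaks, 15 overlapped H3K4me3 (46.9%, 30.9 to 63.6%), against 18.9% of the list, and 8 overlapped H3K27ac (25.0%, 13.3 to 42.1%), against 33.4%. The 15 had signal values of 2.55 to 8.39 with a median of 5.46, and the whole list's peaks with H3K4me3 had a median of 4.14. The remaining 17 overlapped neither mark (53.1%, 36.4 to 69.1%), against 61.6%, and had signal values of 2.18 to 7.26 with a median of 3.29. These ranges overlap widely.

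Set against the genome, the cluster was dense in H3K4me3 and H3K4me1 peaks and had few H3K27ac peaks for that density. Windows of the same length were tiled over chromosomes 1 to 22 and X, and 15127 held a peak of any list. The tiles cut the cluster at other places than its own window. At least 8 H3K4me3 peaks were found in 2.45% of them, at least 32 H3K4me1 peaks in 7.97% and at least 4 H3K27ac peaks in 39.5%. H3K4me3 covered 9.09% of the cluster, or 6.10 times its share of the genome, and 3.52% of windows were covered at least as much. H3K4me1 covered 24.6% (3.79 times, 10.8% of windows) and H3K27ac 6.59% (2.17 times, 22.6% of windows). Against chromosome 16 alone the ratios were 4.03, 2.38 and 1.40. The 370 windows with at least 8 H3K4me3 peaks had a median of 16 H3K27ac peaks (interquartile range 12 to 21) and of 34 H3K4me1 peaks. Of these windows 5, or 1.35%, had at most 4 H3K27ac peaks. That comparison was chosen with the cluster's own counts known and is a description. It counted H3K4me3 peaks whatever their strength, and 3 of the 8 in the cluster were above the list median of 13.3.

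**Figure D4:**
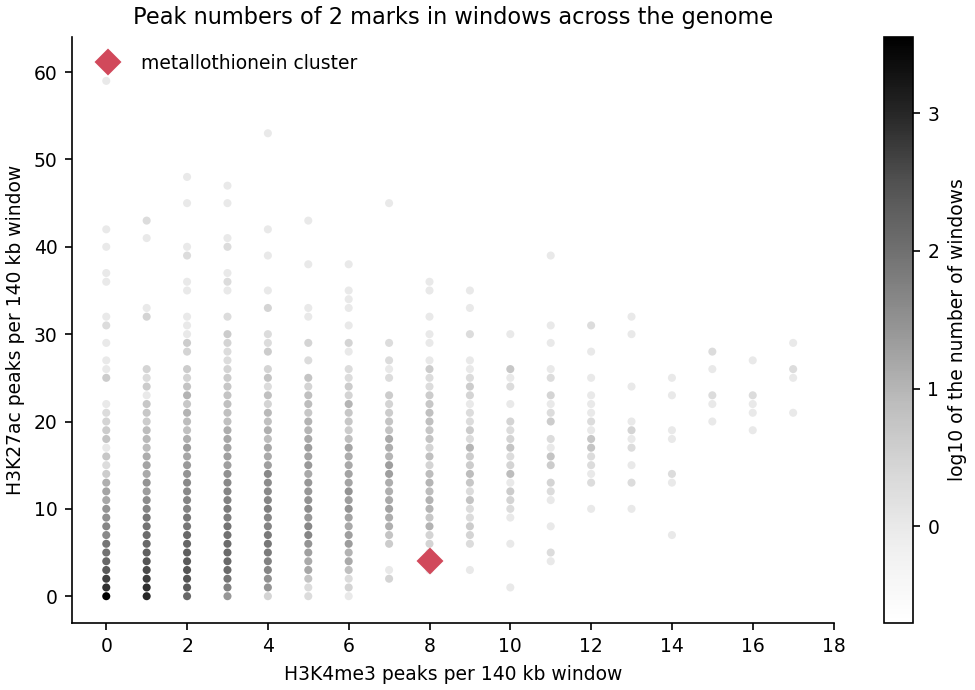
Number of H3K27ac peaks against number of H3K4me3 peaks in windows of 140 kb across the genome, shaded by the log10 number of windows at each pair of counts. The diamond is the metallothionein cluster, with 8 H3K4me3 and 4 H3K27ac peaks, and 5 of the 370 windows with at least 8 H3K4me3 peaks have no more H3K27ac peaks than it.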

How the data were processed

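Values came from 3 peak lists that the authors deposited, which going by their names pooled the 3 libraries of each mark. The genome build hg19 (GRCh37) and MACS2 are named in the submitters' processing notes, with no version or role. The caller's threshold and the use of the control libraries are not given in the sources used here. The deposited signal value of each peak was used to describe, rank and filter within its list. The deposited −log10 q-value served as a filter in 1 alternative. The deposited score was not used.

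Peaks on chromosomes 1 to 22 and X were kept, and positions were counted from 1. A single shared base, 1 bp, counted as overlap. Genome shares and tiled windows ran from the first base to the last peak of each chromosome. The 3 strongest and the widest peak of each list in the window, all 10 members, and MT2A and MT1X in full were named by rule. For the H3K27ac and H3K4me3 lists, all peaks are given. No test was made, since a pooled list has no replicates. Members, window and lists were chosen with earlier results of these data known; the comparison with peaks of like strength, the H3K4me1 gaps over the whole list and the count of H3K27ac peaks in windows dense in H3K4me3 were added after the values were seen. Overlap and joining were tested on simulated data. Planned counts of gene starts over all genes, of a zinc pathway list and of liver markers were not made, for want of GRCh37 gene positions. Python 3.11.15, numpy 2.4.6, pandas 2.3.3, scipy 1.17.1 and matplotlib 3.10.9 were used.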

Additional observations from a re-analysis of the deposited data

How the results depend on the processing

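Of 85 alternative values for 13 results, 58 stayed within 1.5 times a count or within the interval of a share or ratio, and 27 moved. The interval of a ratio treated each base of the window as a separate trial, though bases within a peak are not independent. It is therefore narrow: for H3K27ac, 2.30 beside 2.17 already counted as moved. With the stronger 50% of each list the window held 18 H3K4me1 peaks, 3 H3K4me3 peaks and 1 enhancer-like H3K27ac peak. An equal number of peaks per list left 6 H3K4me1 peaks, 1 of them without another mark. Joining peaks within 1000 bp gave 20 H3K4me1 peaks and placed both gene starts, 2 of 2, inside H3K4me1, as did allowing a peak within 500 or 1000 bp of the start (2 and 2). These moves follow from how the alternatives are built.

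The ratio of the covered share of the window to that of the genome, 2.17 for H3K27ac, was 2.30 when peaks under a −log10 q-value of 5 were dropped, 2.61 in the stronger 50%, 2.71 with equal numbers, 2.02 with joined peaks, 2.53 and 1.89 with the window 10 kb narrower or wider on each side, and 1.40 against chromosome 16. For H3K4me1 (3.79) the same alternatives gave 4.19, 3.89, 2.97, 3.74, 4.15, 3.84 and 2.38. For H3K4me3 (6.10) the stronger 50% gave 5.09, the narrower and wider window 7.11 and 5.34, and chromosome 16 4.03. The ratios stayed above 1 under each alternative run.

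No paired analysis was possible because the lists pool the replicates, and for the same reason leaving out 1 replicate at a time was not done. The depth of the libraries is unknown, and marks below the detection limit of the lists were not analysed.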
